A study of Homo sapiens with 24 samples.

Results

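The subject is a list of 35 human genes of cholesterol and fatty acid synthesis, with their SREBP regulators and the cholesterol efflux genes controlled by LXR, followed in 2 BRAFV600E cancer cell lines treated with vemurafenib, a RAF kinase inhibitor. A gene was described if at least 1 of its probes had a detection p-value under 0.05 on 3 or more of the 24 arrays, and its brightest such probe was used. Of the 35 listed genes, 33 met this rule, out of 13699 genes that met it on the whole array. They comprised 16 genes of sterol synthesis, 8 of fatty acid synthesis and desaturation, 5 regulators of SREBP and 4 genes of the LXR group. STARD4 was detected on 2 arrays and fell below the rule, and FDFT1 was not analysed here.

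SKMEL28 is a melanoma line and SW1736 a thyroid cancer line, and both carry the BRAFV600E mutation. Cells of each line were left untreated (0 h) or were given 2 µM vemurafenib for 1, 6 or 48 h, and total RNA was hybridised to Illumina bead arrays, 3 for each of the 8 groups. Each line stands for 1 tumour, and the labels name no vehicle control and no untreated culture kept for 48 h, so drug and time in culture cannot be told apart. Whether the 3 replicates of a group were grown as separate cultures is not stated in the labels. The p-values therefore cover the spread between the arrays at hand, and that spread may be technical.

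Between 17369 and 19843 probes were detected on each array. The median replicate SD over genes was 0.18 log2 units in SKMEL28 and 0.28 in SW1736, so the same change was measured less precisely in SW1736. The melanocyte markers MLANA, TYR, TYRP1 and SOX10 were detected on 12 of 12 SKMEL28 arrays and on 0 SW1736 arrays, and PMEL and MITF on 12 SKMEL28 arrays and on 4 and 11 SW1736 arrays. The thyroid transcription factors PAX8 and FOXE1 were detected on 12 of 12 SW1736 arrays and on 3 and 0 SKMEL28 arrays, whereas thyroglobulin (TG) and NKX2-1 were detected on 0 of them. The MAPK feedback gene DUSP6 was undetected in SKMEL28 at 6 h, at least 22.4-fold lower than at 0 h, and fell by 2.73 log2 units in SW1736 at 6 h (adjusted p = 4.32e-07). At 48 h DUSP6 was still lower by a log2 change of -4.31 in SKMEL28 and of -1.12 in SW1736.

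Cholesterol is built from acetyl-CoA through mevalonate, farnesyl diphosphate, squalene and lanosterol, and fatty acids from the same acetyl-CoA through malonyl-CoA. The enzymes of both routes are transcribed under SREBP factors, which the escort protein SCAP carries to the Golgi for cleavage when sterols are low and which INSIG proteins hold in the endoplasmic reticulum when sterols are high. LXR receptors sense oxysterols and switch on the exporters ABCA1 and ABCG1 and the ubiquitin ligase MYLIP, and LXR also drives SREBF1.

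Promoter sequence was available in RefSeq (GRCh38.p14) for 30 of the 33 measured genes, as windows from 250 bases before to 50 after the gene start, some genes having several. It was not available for SQLE, FASN and ABCG1, which were not searched. The motifs of these pathways were counted in them on both strands. The sterol regulatory element core CACNCCAC occurred in 7 of the 30 genes (23.3%) and in 7.05% of all 27305 genes with a promoter. The longer form TCACNCCAC, which contains that core, occurred in SREBF2 only among the 30 members searched (3.33%, against 1.39% of all genes). The NF-Y box CCAAT occurred in 22 members (73.3%, against 39.7%). The LXR-type direct repeat, half-sites GGTNA and GGTCA with 5 bases between them, occurred in ABCA1 only among the 30 members searched (3.33%, against 0.3%). These matches describe letters and were not tested as binding sites.

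The upstream 250 bases of 5 of these genes are shown as examples, 5′ to 3′ on the gene's strand. They were picked from genes that hold the sterol core or the LXR-type repeat and rose at 48 h. INSIG1, SREBF2, SCD and IDI1 rose in SKMEL28, and ABCA1 rose in SW1736. Capitals mark the CACNCCAC core in either orientation in the first 4, and the LXR-type repeat, here in reverse orientation, in ABCA1. The ABCA1 sequence also holds the CACNCCAC core, left in lower case, at -228. Other carriers are not shown. SC5D holds the core and rose in SKMEL28 at 48 h, and ACACA holds it and was not called there. The CCAAT box also occurred in FDPS and ACLY, which fell in SKMEL28 at 48 h. Whether a motif goes with a rise was not tested.
INSIG1, chr7:155297628-155297877 (+): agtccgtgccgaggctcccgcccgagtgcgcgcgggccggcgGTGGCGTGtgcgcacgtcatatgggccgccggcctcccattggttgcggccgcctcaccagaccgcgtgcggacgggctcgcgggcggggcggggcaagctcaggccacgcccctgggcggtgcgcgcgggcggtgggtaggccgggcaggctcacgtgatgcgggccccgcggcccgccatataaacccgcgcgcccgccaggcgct
SREBF2, chr22:41832855-41833104 (+): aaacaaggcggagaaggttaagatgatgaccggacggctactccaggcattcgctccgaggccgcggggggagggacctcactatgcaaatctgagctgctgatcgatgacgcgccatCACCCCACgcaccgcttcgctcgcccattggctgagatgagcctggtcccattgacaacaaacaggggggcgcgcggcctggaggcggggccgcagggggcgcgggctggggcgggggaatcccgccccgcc
SCD, chr10:100346983-100347232 (+): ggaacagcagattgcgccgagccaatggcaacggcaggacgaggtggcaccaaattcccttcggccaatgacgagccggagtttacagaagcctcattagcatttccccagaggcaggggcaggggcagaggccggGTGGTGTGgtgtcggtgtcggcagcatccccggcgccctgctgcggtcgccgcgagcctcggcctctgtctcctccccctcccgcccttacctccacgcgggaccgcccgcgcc
IDI1, chr10:1048887-1049136 (-): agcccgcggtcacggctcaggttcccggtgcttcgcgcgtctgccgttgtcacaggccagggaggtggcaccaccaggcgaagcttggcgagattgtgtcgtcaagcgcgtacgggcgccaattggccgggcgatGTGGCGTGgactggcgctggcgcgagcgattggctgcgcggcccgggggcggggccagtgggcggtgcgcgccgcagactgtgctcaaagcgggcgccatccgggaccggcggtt
ABCA1, chr9:104928156-104928405 (-): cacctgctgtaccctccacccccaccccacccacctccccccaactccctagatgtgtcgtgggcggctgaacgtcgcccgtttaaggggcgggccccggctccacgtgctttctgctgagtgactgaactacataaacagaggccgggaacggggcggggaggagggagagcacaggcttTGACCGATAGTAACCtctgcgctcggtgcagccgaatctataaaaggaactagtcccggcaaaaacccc
Counted from the gene start, the first capital base lies at -208 in INSIG1, -132 in SREBF2, -114 in SCD, -115 in IDI1 and -69 in ABCA1.

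At 48 h of vemurafenib 13 of the 24 sterol and fatty acid synthesis genes passed the test in SKMEL28, 10 higher and 3 lower, and 3 passed in SW1736, 1 higher and 2 lower. These were 54.2% in SKMEL28 (41.7% higher and 12.5% lower), where 49.1% of all genes passed. In SW1736 they were 12.5% (4.17% higher and 8.33% lower), where 26.6% of all genes passed. Tested as a difference between the lines at 48 h, 4 of the 24 passed (16.7%, against 21.1% of all genes). In bulk RNA, a change in every cell and a change in some cells cannot be told apart. In SKMEL28, 15 of the 33 genes were higher at 48 h than at 0 h and 4 lower at an adjusted p under 0.05 (limma, Benjamini-Hochberg over all genes tested). In that comparison 49.1% of all genes were called, 25.7% of all genes being higher and 23.4% lower, so the members' 45.5% higher and 12.1% lower are to be read against a broad response. In SW1736, 6 members were higher and 2 lower at 48 h, where 26.6% of all genes were called (14% higher and 12.6% lower). The members' median log2 change at 48 h was 0.25 in SKMEL28 and 0.21 in SW1736, and that of all genes was 0.03 and 0.02.

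The earlier times held fewer changes. At 1 h, MYLIP was the 1 member called in SKMEL28, where it was higher (0.416% of all genes called, 0.139% higher and 0.277% lower), and 0 members were called in SW1736 (0.0511% of all genes called). At 6 h, 4 members were higher and 3 lower in SKMEL28, where 14.4% of all genes were called (6.33% higher and 8.04% lower). At the same time 3 were higher and 1 lower in SW1736, where 4.4% were called (1.82% higher and 2.58% lower). From 6 to 48 h, 19 members rose and 3 fell in SKMEL28, where 44.4% of all genes were called (24.7% higher and 19.7% lower). Over that interval 3 rose and 4 fell in SW1736, where 19.5% were called (10.4% higher and 9.12% lower). The map of all changes shows most SKMEL28 calls at 48 h, and all 4 LXR genes called in SW1736 at that time. Scaling each array by its median instead of by quantiles moved the median change of all genes to -0.13 in SKMEL28 at 6 h and to within 0.08 of 0 elsewhere. With that scaling 0 members were higher and 4 lower in SKMEL28 at 6 h, and 13 were higher and 4 lower at 48 h. In SW1736 it left 2 higher and 1 lower at 6 h, and 3 higher and 3 lower at 48 h.

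**Figure D1:**
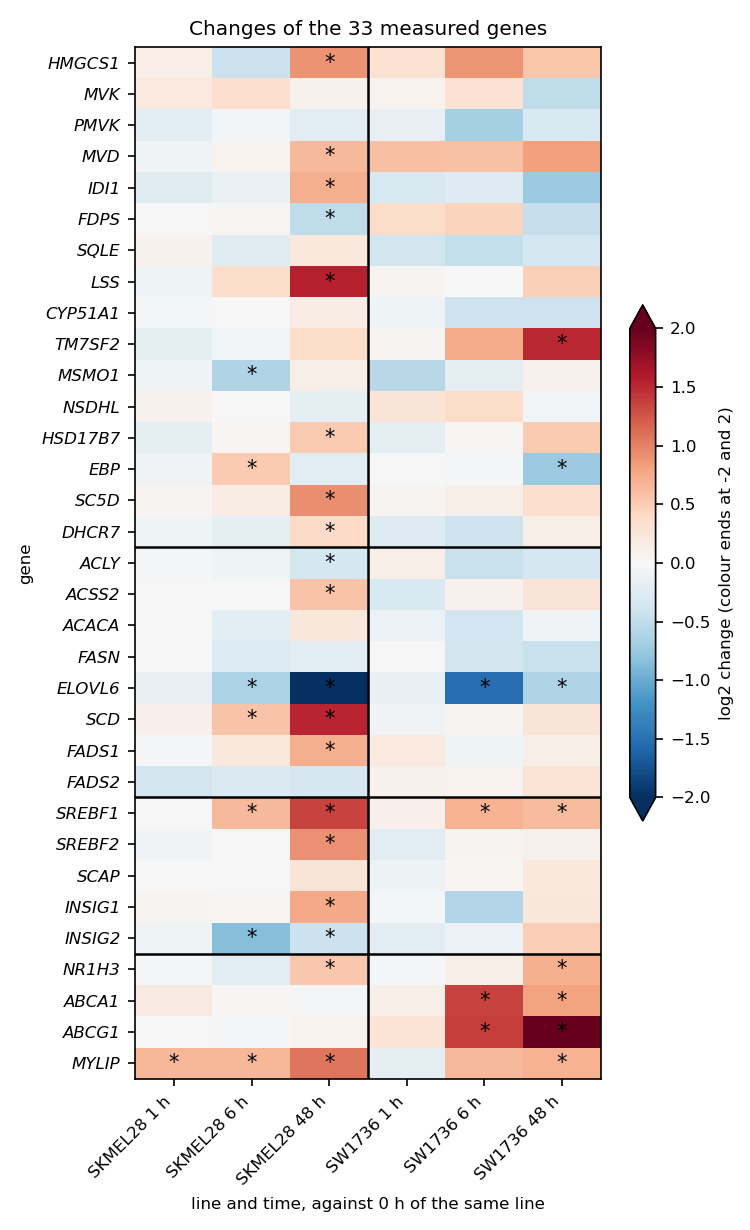
Log2 change of each of the 33 measured genes (rows, grouped by role with black lines) at 1, 6 and 48 h against 0 h of the same line (columns), with the colour scale ending at -2 and 2 and asterisks at an adjusted p under 0.05. SKMEL28 has 1, 7 and 19 asterisks at 1, 6 and 48 h, and SW1736 has 0, 4 and 8.

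The sterol route began with HMGCS1, the cytosolic HMG-CoA synthase that feeds the mevalonate pathway. Its log2 level in SKMEL28 was 8.18, 8.59 and 8.21 at 0 h, 7.98, 8.37 and 7.34 at 6 h, and 9.06, 9.20 and 9.40 at 48 h. In SW1736 it was 9.36, 8.74 and 9.36 at 0 h, 10.27, 9.71 and 10.11 at 6 h, and 9.51, 9.83 and 9.78 at 48 h. The SKMEL28 arrays of 48 h lay above all earlier ones of that line, while the SW1736 arrays were highest at 6 h and those of 6 and 48 h overlapped. HMGCS1 rose by 0.90 ± 0.18 (SE, n = 3 against 3) in SKMEL28 at 48 h (adjusted p = 0.000277), and in SW1736 the change of 0.88 ± 0.28 at 6 h missed the threshold (adjusted p = 0.0898). From 6 to 48 h its change was 1.33 in SKMEL28 (adjusted p = 3.05e-06) and -0.33 in SW1736 (adjusted p = 0.499). That difference between the lines, -1.65 ± 0.34, passed the test (adjusted p = 0.00128), as did the difference at 6 h, 1.31 ± 0.34 (adjusted p = 0.0254). The difference at 6 h no longer passed without any 1 of 4 arrays, SKMEL28 0 h replicate 2, SW1736 0 h replicate 2 and SW1736 6 h replicates 1 and 3, with values of 1.18, 1.10, 1.19 and 1.27.

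The kinases and decarboxylase that follow were less uniform. MVK, mevalonate kinase, was between 5.88 and 6.50 on the 12 SKMEL28 arrays, and fell by 0.80 ± 0.22 in SW1736 from 6 to 48 h (adjusted p = 0.00988), a call lost without SW1736 48 h replicate 2 (-0.55), the array on which MVK was undetected. The MVK call was also lost without background correction (-0.34, adjusted p = 0.054) and with the authors' deposited table (-0.34, adjusted p = 0.0548). PMVK, phosphomevalonate kinase, passed in none of the 12 comparisons, and its largest change was -0.66 in SW1736 at 6 h (adjusted p = 0.0969). MVD, mevalonate diphosphate decarboxylase, rose by 0.65 ± 0.20 in SKMEL28 at 48 h (adjusted p = 0.00897), although its arrays overlapped, with 6.18, 5.86 and 6.44 at 0 h and 6.38, 6.86 and 7.19 at 48 h. Without SKMEL28 0 h replicate 2 or SKMEL28 48 h replicate 3 the MVD change was 0.50 or 0.46 and did not pass. In SW1736 MVD changed by 0.82 ± 0.31 at 48 h (adjusted p = 0.0556), and the lines did not differ by the test (0.16 ± 0.37, adjusted p = 0.814).

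IDI1, the isomerase that makes the allylic isoprene unit, separated the lines. It measured 8.21, 8.15 and 8.34 in SKMEL28 at 0 h and 8.94, 8.88 and 9.06 at 48 h, and in SW1736 8.89, 8.94 and 8.60 at 0 h and 7.62, 7.95 and 8.66 at 48 h. The SKMEL28 groups did not overlap, whereas 1 SW1736 array of 48 h lay within the range of its 0 h arrays. IDI1 rose by 0.73 ± 0.20 in SKMEL28 (adjusted p = 0.00417), and its change in SW1736 was -0.73 ± 0.31 (adjusted p = 0.0893). The difference between the lines was -1.46 ± 0.37 at 48 h (adjusted p = 0.00626) and -1.34 ± 0.37 from 6 to 48 h (adjusted p = 0.0139). The latter was lost without SW1736 48 h replicate 1 (-1.11). FDPS, farnesyl diphosphate synthase, was the 1 sterol gene that fell in SKMEL28 at 48 h, by 0.50 ± 0.15 (adjusted p = 0.00917), a call lost without SKMEL28 0 h replicate 2 (-0.39) or 48 h replicate 1 (-0.40). From 6 to 48 h FDPS fell by 0.55 in SKMEL28 (adjusted p = 0.00592) and by 0.91 in SW1736 (adjusted p = 0.00855), the SW1736 call being lost without 48 h replicate 2 (-0.76).

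LSS, lanosterol synthase, which closes the first sterol ring system, had the largest change of the 16 sterol genes in SKMEL28. Its level was 9.0, 8.89 and 8.71 at 0 h, 9.25, 9.17 and 9.21 at 6 h, and 10.49, 10.40 and 10.32 at 48 h. In SW1736 it was 7.98, 8.54 and 8.64 at 0 h and 8.53, 8.67 and 9.39 at 48 h. The SKMEL28 arrays of 48 h stood above all other arrays of either line, and the SW1736 groups overlapped. LSS rose by 1.54 ± 0.13 in SKMEL28 (adjusted p = 1.38e-09) and changed by 0.47 ± 0.20 in SW1736 (adjusted p = 0.0931), a difference between the lines of -1.06 ± 0.24 (adjusted p = 0.00263). Its difference from 6 to 48 h, -0.71 ± 0.24 (adjusted p = 0.0445), was lost without any 1 of 10 of the 12 arrays involved (-0.76 to -0.54), all but SKMEL28 48 h replicate 3 and SW1736 48 h replicate 3. On 2 dimmer LSS probes, detected on 8 and 4 of 24 arrays, the difference at 48 h was -0.87 (adjusted p = 0.11) and -0.55 (adjusted p = 0.294). Before lanosterol, SQLE, squalene epoxidase, rose by 0.45 ± 0.11 in SKMEL28 from 6 to 48 h (adjusted p = 0.00231) and did not pass against 0 h (0.21, adjusted p = 0.14). A dimmer SQLE probe, detected on all 24 arrays, fell by 0.74 in SW1736 at 48 h (adjusted p = 0.0129), where the brighter one gave -0.35 (adjusted p = 0.151).

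Among the enzymes from lanosterol to cholesterol, 3 rose in SKMEL28 at 48 h. SC5D, a sterol desaturase, measured 8.91, 9.06 and 8.93 at 0 h and 9.76, 10.03 and 9.90 at 48 h in SKMEL28, without overlap. It rose by 0.93 ± 0.12 there (adjusted p = 1.04e-06) and changed by 0.33 ± 0.19 in SW1736 (adjusted p = 0.224), and the lines' difference of -0.60 missed the threshold (adjusted p = 0.0619). HSD17B7, a sterol ketoreductase, rose by 0.52 ± 0.15 in SKMEL28 (adjusted p = 0.0055), and its change in SW1736 was of similar size with a larger error, 0.53 ± 0.23 (adjusted p = 0.0995). DHCR7, the reductase of the last step, rose by 0.38 ± 0.14 in SKMEL28 (adjusted p = 0.0264), a call that was lost when SKMEL28 0 h replicate 1 (0.34), SKMEL28 0 h replicate 2 (0.38) or SKMEL28 48 h replicate 3 (0.29) was left out, and under median scaling (0.24). CYP51A1, lanosterol demethylase, and NSDHL, a sterol dehydrogenase, passed in no comparison over time, with changes at 48 h of 0.15 and -0.18 in SKMEL28 and of -0.42 and -0.05 in SW1736.

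MSMO1, the sterol methyl oxidase, dipped and recovered in SKMEL28. Its level was 9.39, 9.09 and 9.37 at 0 h, 8.65, 8.38 and 9.02 at 6 h, and 9.55, 9.50 and 9.14 at 48 h, so that all 3 arrays of 6 h lay below the rest. MSMO1 fell by 0.60 ± 0.14 at 6 h (adjusted p = 0.00567) and rose by 0.71 from 6 to 48 h (adjusted p = 0.000297), and it passed in no SW1736 comparison. Its 2 other probes, both detected on all 24 arrays, disagreed, with -0.97 and -0.31 in SKMEL28 at 6 h (adjusted p = 0.00525 and 0.432) and 1.16 and 0.00 in SW1736 at 48 h (adjusted p = 0.0102 and 0.998). EBP, the sterol isomerase, did the opposite in SKMEL28. It rose by 0.53 ± 0.14 at 6 h (adjusted p = 0.0108), from 8.92, 8.88 and 8.69 to 9.58, 9.39 and 9.10, and fell by 0.73 from 6 to 48 h (adjusted p = 0.000142). The rise of EBP at 6 h was lost without SKMEL28 0 h replicate 3 (0.46) or 6 h replicate 1 (0.42), and under median scaling (0.30).

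In SW1736 the sterol genes that passed at 48 h were 2. TM7SF2, a sterol reductase, was 5.83, 6.76 and 6.63 at 0 h and 8.26, 8.07 and 7.40 at 48 h, without overlap, and rose by 1.5 ± 0.39 (adjusted p = 0.00577). In SKMEL28 TM7SF2 was detected on 4 of 12 arrays, so its change there is a value near background. EBP fell by 0.72 ± 0.21 (adjusted p = 0.0151), from 10.32, 10.22 and 10.49 to 9.31, 9.44 and 10.11, and lost the call without SW1736 0 h replicate 3 (-0.64) or 48 h replicate 1 (-0.56) or 2 (-0.63). Over the 16 sterol genes the median change at 48 h was 0.29 in SKMEL28, with 7 higher and 1 lower (43.8% and 6.25%, against 25.7% and 23.4% of all genes). In SW1736 it was 0.02, with 1 higher and 1 lower (6.25% each, against 14% and 12.6% of all genes).

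**Figure D2:**
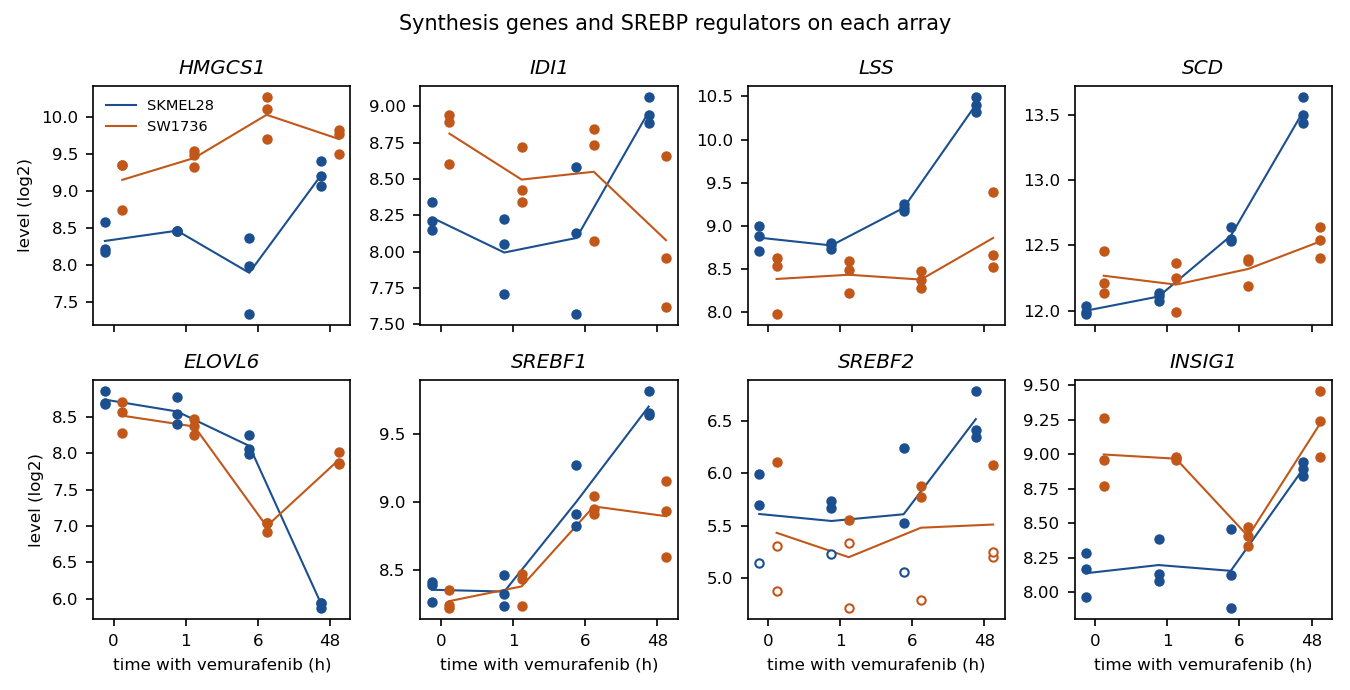
Normalised log2 level of 5 synthesis genes and 3 SREBP regulators on each array at 0, 1, 6 and 48 h of vemurafenib (blue, SKMEL28; orange, SW1736; lines join the means of 3 arrays; open circles, probe not detected at p under 0.05). LSS, SCD and SREBF1 of SKMEL28 are highest at 48 h, and ELOVL6 falls to between 5.87 and 5.95 there while the SW1736 arrays return to between 7.85 and 8.01.

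Among the 8 fatty acid genes the desaturase and the elongase moved furthest, in opposite directions. SCD, stearoyl-CoA desaturase, which makes monounsaturated fatty acids, measured 11.97, 12.03 and 11.99 in SKMEL28 at 0 h, 12.53, 12.55 and 12.64 at 6 h, and 13.64, 13.49 and 13.43 at 48 h. In SW1736 it measured 12.21, 12.46 and 12.13 at 0 h and 12.64, 12.40 and 12.54 at 48 h. The SKMEL28 groups of 0, 6 and 48 h formed 3 separate steps, whereas the SW1736 groups overlapped. SCD rose by 1.52 ± 0.09 in SKMEL28 at 48 h (adjusted p = 5.56e-12) and changed by 0.26 ± 0.15 in SW1736 (adjusted p = 0.21). The difference between the lines was -1.26 ± 0.17 (adjusted p = 1.08e-05). The earlier rise of SCD in SKMEL28, 0.57 ± 0.09 at 6 h (adjusted p = 0.000128), did not pass under median scaling (0.37, adjusted p = 0.138).

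ELOVL6, which elongates saturated and monounsaturated fatty acids, had the largest change of all 33 genes against 0 h. In SKMEL28 it measured 8.67, 8.68 and 8.85 at 0 h, 7.99, 8.05 and 8.25 at 6 h, and 5.87, 5.95 and 5.95 at 48 h. In SW1736 it measured 8.56, 8.71 and 8.28 at 0 h, 7.04, 7.04 and 6.91 at 6 h, and 8.01, 7.85 and 7.86 at 48 h. The fall was stepwise in SKMEL28, while in SW1736 the lowest arrays were those of 6 h and the level at 48 h lay between the others. ELOVL6 fell by 2.81 ± 0.11 in SKMEL28 at 48 h (adjusted p = 1.09e-15), and in SW1736 it fell by 1.52 ± 0.17 at 6 h (adjusted p = 2.76e-06) and by 0.61 ± 0.17 at 48 h (adjusted p = 0.0082). From 6 to 48 h it fell by 2.18 in SKMEL28 and rose by 0.91 ± 0.17 in SW1736 (adjusted p = 0.000302), a difference of 3.09 ± 0.20 (adjusted p = 3.22e-10). At 6 h the fall was larger in SW1736, by -0.88 ± 0.20 (adjusted p = 0.00785), and at 48 h the difference was 2.21 ± 0.20 (adjusted p = 2.16e-08).

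A dimmer probe of ELOVL6, also detected on all 24 arrays, gave -1.51 in SKMEL28 at 48 h and, in SW1736, -0.76 at 6 h (adjusted p = 0.252) and -0.49 at 48 h (adjusted p = 0.321). On that probe the difference between the lines was 1.02 at 48 h (adjusted p = 0.0765) and -0.05 at 6 h, so the ELOVL6 calls in SW1736 and between the lines rest on the brighter probe. The fall of ELOVL6 in SW1736 at 48 h was also lost without SW1736 0 h replicate 2 (-0.51), and the difference at 6 h under median scaling (-0.78).

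The remaining genes of fatty acid synthesis changed less. ACSS2, which activates acetate to acetyl-CoA, rose by 0.57 ± 0.12 in SKMEL28 at 48 h (adjusted p = 0.000379), from between 9.55 and 9.58 to between 9.98 and 10.24. Its 3 detected probes disagreed, since 1 dimmer probe fell by 0.81 (adjusted p = 0.0344) and the other gave 0.75, and under median scaling the change of the main probe was 0.40 and did not pass (adjusted p = 0.0816), nor did the mean of the probes (0.17, adjusted p = 0.233). ACLY, which makes acetyl-CoA from citrate, fell by 0.35 ± 0.12 in SKMEL28 (adjusted p = 0.0237), a call lost without SKMEL28 0 h replicate 2 or 48 h replicate 1 (-0.25 in each case). ACACA, the carboxylase that makes malonyl-CoA, rose by 0.43 ± 0.11 from 6 to 48 h in SKMEL28 (adjusted p = 0.0032). FASN, fatty acid synthase, passed in no comparison over time, with -0.23 ± 0.16 in SKMEL28 and -0.45 ± 0.24 in SW1736 at 48 h. FADS1, a polyunsaturated fatty acid desaturase, rose by 0.72 ± 0.13 in SKMEL28 (adjusted p = 7.7e-05) and changed by 0.12 ± 0.20 in SW1736. FADS2, its partner desaturase, was detected on 6 of 24 arrays and passed in no comparison.

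Both SREBP genes rose in SKMEL28. SREBF1, the factor that mainly serves fatty acid genes, measured 8.39, 8.26 and 8.41 at 0 h, 8.83, 9.27 and 8.91 at 6 h, and 9.66, 9.82 and 9.64 at 48 h in SKMEL28. In SW1736 it measured 8.24, 8.22 and 8.35 at 0 h, 8.95, 9.04 and 8.91 at 6 h, and 9.16, 8.60 and 8.94 at 48 h. Treated arrays of 6 and 48 h lay above those of 0 h in both lines, but only in SKMEL28 did those of 48 h lie above those of 6 h. SREBF1 rose by 0.65 ± 0.12 at 6 h in SKMEL28 (adjusted p = 0.000309) and by 0.70 ± 0.18 in SW1736 (adjusted p = 0.0254). At 48 h SREBF1 had risen by 1.35 ± 0.12 in SKMEL28 (adjusted p = 1.47e-09) and by 0.63 ± 0.18 in SW1736 (adjusted p = 0.0116), and the difference of -0.73 ± 0.21 passed (adjusted p = 0.0175). The difference from 6 to 48 h was -0.77 ± 0.21 (adjusted p = 0.0138).

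The SW1736 side of SREBF1 was less secure than the SKMEL28 side. Its rise at 6 h was lost without any 1 of 5 of the 6 arrays (0.66 to 0.73), all but SW1736 0 h replicate 3, and its rise at 48 h without SW1736 48 h replicate 1 (0.50). Without SW1736 48 h replicate 2 neither difference between the lines passed (-0.58 at 48 h and -0.63 from 6 to 48 h). A second SREBF1 probe detected on all arrays rose by 1.36 in SKMEL28 at 48 h and gave 0.53 at 6 h (adjusted p = 0.425) and 0.24 at 48 h (adjusted p = 0.642) in SW1736. Under median scaling the rise of SREBF1 at 6 h passed in neither line, at 0.44 in SKMEL28 (adjusted p = 0.0949) and 0.55 in SW1736 (adjusted p = 0.244), and neither the SW1736 rise at 48 h (0.46) nor the difference at 48 h (-0.75, adjusted p = 0.084) passed.

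SREBF2, the factor that mainly serves sterol genes, lay close to background. In SKMEL28 it measured 5.14, 5.69 and 6.00 at 0 h, where the first array was undetected, and 6.35, 6.42 and 6.78 at 48 h, where all 3 were detected. The groups did not overlap, and SREBF2 rose by 0.91 ± 0.28 (adjusted p = 0.00919), a call lost without SKMEL28 0 h replicate 1 (0.67). In SW1736 SREBF2 was detected on 5 of 12 arrays and its change at 48 h was 0.08 ± 0.43, and the difference between the lines did not pass (-0.83 ± 0.51, adjusted p = 0.29). SCAP, the escort protein, changed by 0.25 ± 0.12 in SKMEL28 (adjusted p = 0.0805) and by 0.21 ± 0.18 in SW1736 at 48 h.

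The retention proteins INSIG1 and INSIG2 followed different courses. INSIG1, itself an SREBP target, measured 7.96, 8.28 and 8.17 in SKMEL28 at 0 h and 8.94, 8.84 and 8.89 at 48 h. In SW1736 it measured 9.26, 8.96 and 8.77 at 0 h, 8.34, 8.47 and 8.41 at 6 h, and 9.46, 9.24 and 8.98 at 48 h. The SKMEL28 groups did not overlap, and the SW1736 arrays of 6 h were the lowest of that line. INSIG1 rose by 0.75 ± 0.13 in SKMEL28 at 48 h (adjusted p = 4.37e-05), and in SW1736 it changed by -0.59 ± 0.20 at 6 h (adjusted p = 0.113) and rose by 0.82 ± 0.20 from 6 to 48 h (adjusted p = 0.00547). INSIG2 measured 8.53, 8.81 and 8.82 in SKMEL28 at 0 h, 7.87 on each array of 6 h, and 8.2, 8.43 and 8.24 at 48 h, so the groups of 6 and 48 h lay below the untreated one. INSIG2 fell by 0.85 ± 0.16 at 6 h (adjusted p = 0.000543) and by 0.43 ± 0.16 at 48 h (adjusted p = 0.029), whereas its change in SW1736 at 48 h was 0.49 ± 0.25 (adjusted p = 0.157). The difference between the lines, 0.92 ± 0.29 (adjusted p = 0.0277), was lost without any 1 of 6 of the 12 arrays (0.81 to 0.91) and under median scaling (0.89). These arrays were SKMEL28 0 h replicates 2 and 3, SW1736 0 h replicates 2 and 3, and SW1736 48 h replicates 1 and 2. The fall of INSIG2 at 48 h in SKMEL28 was lost without 0 h replicates 2 or 3 or 48 h replicates 1 or 3 (-0.40 to -0.38). A dim INSIG1 probe, detected on 6 of 24 arrays, went the other way in SKMEL28 at 48 h (-0.36), and the mean of both INSIG1 probes gave 0.20 (adjusted p = 0.0871). The INSIG1 rise in SW1736 from 6 to 48 h passed neither on that probe nor with the mean of both. The values were -0.056 (adjusted p = 0.912) and 0.38 (adjusted p = 0.0573), the dim probe being detected on 1 SW1736 array.

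All 4 genes of the LXR group were higher at 48 h than at 0 h in SW1736, where 14% of all genes were higher, with a median change of 0.76. At 6 h 2 of them were higher, where 1.82% of all genes were. Of the 4 calls at 48 h, those of ABCA1, NR1H3 and MYLIP were lost under median scaling. ABCA1, which exports cholesterol to lipid-poor apolipoproteins, measured 9.77, 10.00 and 10.06 in SW1736 at 0 h, 11.17, 10.99 and 11.71 at 6 h, and 10.71, 10.93 and 10.61 at 48 h. The treated arrays of 6 and 48 h all lay above the untreated ones. On the 12 SKMEL28 arrays ABCA1 was never detected, with values from 4.43 to 4.8 that mark the background. ABCA1 rose by 1.35 ± 0.17 at 6 h (adjusted p = 2.34e-05) and stood 0.81 ± 0.17 above 0 h at 48 h (adjusted p = 0.00117). Its fall of 0.54 from 6 to 48 h (adjusted p = 0.0294) was lost without SW1736 6 h replicate 3 (-0.33) or 48 h replicate 1 (-0.52) or 3 (-0.47). Under median scaling the change of ABCA1 at 48 h was 0.55 and did not pass (adjusted p = 0.0837), nor did its difference between the lines at 48 h (0.59).

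ABCG1, which exports cholesterol to mature lipoprotein particles, went on rising. It measured 6.99, 7.42 and 7.04 in SW1736 at 0 h, 8.50, 8.40 and 8.69 at 6 h, and 9.34, 9.20 and 9.38 at 48 h, in 3 separate steps. The probe used was undetected on all 12 SKMEL28 arrays. ABCG1 rose by 1.39 ± 0.18 at 6 h (adjusted p = 3.57e-05), by 2.16 ± 0.18 at 48 h (adjusted p = 8.13e-09) and by 0.77 ± 0.18 between those times (adjusted p = 0.0039). A second ABCG1 probe, detected on 11 SW1736 arrays and 0 SKMEL28 arrays, rose by 0.93 at 6 h and 1.77 at 48 h. Another 2 dim probes of ABCG1 gave 0.17 and 0.51 in SW1736 at 48 h and did not pass. The first of them was detected on 11 SKMEL28 and 9 SW1736 arrays, the other on 1 and 3, so the gene as a whole was not shown to be below background in SKMEL28. The SW1736 change of ABCA1 minus its SKMEL28 value was 1.33 ± 0.21 at 6 h and 0.83 ± 0.21 at 48 h. For the ABCG1 probe used the difference was 1.40 ± 0.22 at 6 h and 2.10 ± 0.22 at 48 h. The SKMEL28 term of these differences compares undetected groups. They therefore restate the SW1736 change and are given without a p-value. On the ABCG1 probe detected on 11 SKMEL28 arrays the difference was 0.23 at 6 h (adjusted p = 0.893) and 0.31 at 48 h (adjusted p = 0.693), and with the mean of the probes it was 0.57 at 6 h (adjusted p = 0.0941).

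NR1H3, the LXR alpha receptor, measured 8.10, 8.01 and 8.14 in SW1736 at 0 h and 9.22, 8.64 and 8.51 at 48 h, and 6.16, 6.38 and 6.20 against 6.94, 6.82 and 6.59 in SKMEL28. The groups of 0 and 48 h did not overlap in either line. NR1H3 rose by 0.71 ± 0.25 in SW1736 (adjusted p = 0.042) and by 0.54 ± 0.16 in SKMEL28 (adjusted p = 0.00854), and the lines' changes did not differ by the test (0.17 ± 0.30, adjusted p = 0.757). The SW1736 call of NR1H3 was lost without any 1 of 5 of its 6 arrays, all but 48 h replicate 3 (0.49 to 0.78), and under median scaling (0.55).

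MYLIP, the ubiquitin ligase that marks lipoprotein receptors for degradation, was the earliest member to move in SKMEL28. It measured 9.70, 9.70 and 9.74 at 0 h, 10.37, 10.33 and 10.41 at 1 h, 10.39, 10.24 and 10.49 at 6 h, and 10.76, 10.85 and 10.73 at 48 h, so every treated array lay above the untreated ones. MYLIP rose by 0.66 ± 0.13 at 1 h (adjusted p = 0.0199), by 0.66 ± 0.13 at 6 h (adjusted p = 0.00115) and by 1.06 ± 0.13 at 48 h (adjusted p = 5.29e-07). The call at 1 h was lost without any 1 of the 6 arrays (0.63 to 0.68), and under median scaling neither the change at 1 h (0.68) nor that at 6 h (0.45) passed. In SW1736 MYLIP measured 8.42, 9.08 and 8.31 at 0 h and 9.47, 9.49 and 8.92 at 48 h, with overlap, and rose by 0.69 ± 0.21 (adjusted p = 0.0153). That call was lost without SW1736 0 h replicate 1 (0.60) or 3 (0.54) or 48 h replicate 1 (0.60) or 2 (0.59), and under median scaling (0.50).

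**Figure D3:**
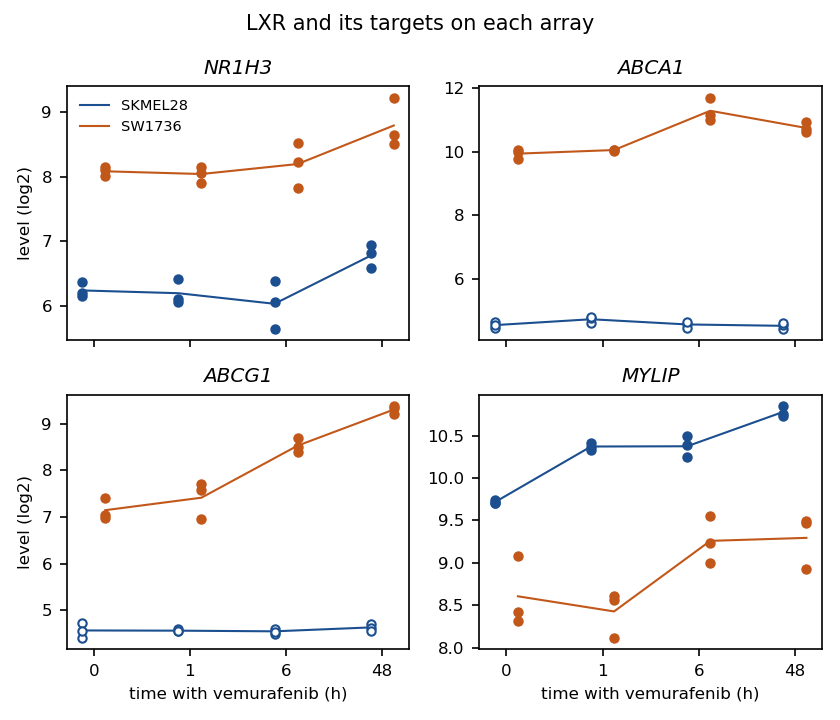
Normalised log2 level of the LXR receptor NR1H3 and of ABCA1, ABCG1 and MYLIP on each array at 0, 1, 6 and 48 h of vemurafenib (blue, SKMEL28; orange, SW1736; lines join the means of 3 arrays; open circles, probe not detected at p under 0.05). The probes shown for ABCA1 and ABCG1 are undetected on all 12 SKMEL28 arrays, and in SW1736 ABCG1 climbs from between 6.99 and 7.42 at 0 h to between 9.20 and 9.38 at 48 h.

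Tested as a difference of the 2 responses, 4 members passed at 6 h, 3 with a higher and 1 with a lower change in SW1736, where 4.23% of all genes were called (2.2% higher and 2.04% lower). At 48 h 8 passed, 4 in each direction, where 21.1% of all genes were called (11.6% higher and 9.49% lower). From 6 to 48 h 7 passed, 2 higher and 5 lower, where 18% of all genes were called (9.69% higher and 8.35% lower). At 48 h these were IDI1, LSS, SCD and SREBF1, whose change was lower in SW1736, and ELOVL6, INSIG2, ABCA1 and ABCG1, whose change was higher there. The counts include ABCA1 at 6 and 48 h and ABCG1 in each comparison, although the probes used measured no SKMEL28 change for them. The median difference over the 16 sterol genes was -0.30 at 48 h and over all genes it was -0.00. The plot of the 48 h changes of the lines against each other places LSS, SCD and SREBF1 far to the right, ABCA1 and ABCG1 on the vertical axis, and ELOVL6 far to the left. SREBF1, NR1H3 and MYLIP were called higher at 48 h in both lines, and their SW1736 calls were lost under median scaling and without single arrays. ELOVL6 was called lower in both, in SW1736 on its brighter probe only. The overlap of calls between the lines was not counted over all genes, so no reading of its size is given.

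**Figure D4:**
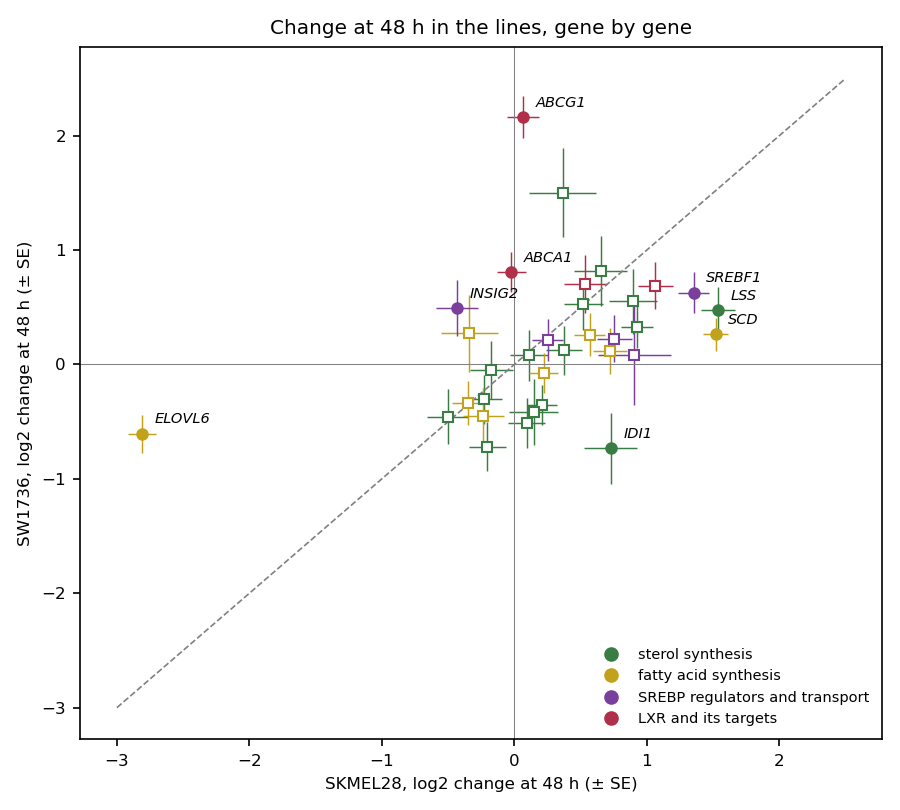
Log2 change at 48 h against 0 h in SKMEL28 (horizontal axis) and SW1736 (vertical axis) for the 33 measured genes, with bars of ± 1 SE and a dashed line of equal change. Filled circles with names are the 8 genes whose difference between the lines had an adjusted p under 0.05. Among them, ABCA1 and ABCG1 were undetected in SKMEL28 on the probes used. ELOVL6 lies at -2.81 in SKMEL28 and -0.61 in SW1736.

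The lines also differed before treatment. In untreated SW1736, 14 members were higher and 6 lower than in untreated SKMEL28, where 50% of all genes were called (25.5% higher and 24.5% lower). The 14 include ABCA1 and ABCG1, whose probes met the detection rule through SW1736 alone, so their difference between the lines is given as a description without a test. ABCA1 was at least 25.9-fold higher in SW1736, set against an undetected SKMEL28 group. The ABCG1 probe used was likewise detected in SW1736 only, while 2 other ABCG1 probes gave differences of -0.17 (adjusted p = 0.689) and 0.24 (adjusted p = 0.476). NR1H3 was higher in SW1736 by 1.84 ± 0.21 (adjusted p = 1.45e-07), and MYLIP was lower by a log2 difference of -1.11 ± 0.17 (adjusted p = 1.05e-05). Among the synthesis genes EBP was higher by 1.52 ± 0.18 (adjusted p = 2.27e-07), ACSS2 by 1.24 ± 0.16, NSDHL by 0.88 ± 0.21 and HMGCS1 by 0.83 ± 0.24. The ACSS2 call was lost only on 1 dimmer probe, detected on 23 of 24 arrays (0.33, adjusted p = 0.534). That of HMGCS1 was lost only without the SW1736 arrays of replicate 3 (0.72, adjusted p = 0.0601). CYP51A1 (-1.0 ± 0.24), FASN (-0.94 ± 0.20) and SQLE (-0.59 ± 0.15) were lower in SW1736. ELOVL6, SREBF1 and SREBF2 did not pass (-0.22, -0.08 and -0.18). The untreated calls of LSS, SC5D, FADS1 and MVD were each lost without at least 1 of the 6 arrays. LSS was -0.48 with all arrays and -0.28 without SW1736 0 h replicate 1 or -0.41 without SKMEL28 0 h replicate 1, and MVD was 0.80 with all arrays and 0.60 without SW1736 0 h replicate 2 or 0.65 without SKMEL28 0 h replicate 2. SC5D was -0.43 with all arrays and -0.36 to -0.44 without SKMEL28 0 h replicate 2 or SW1736 0 h replicates 2 or 3, and FADS1 was 0.42 with all arrays and 0.29 to 0.49 without any 1 array other than SKMEL28 0 h replicate 3. The fit with the replicate number as a block takes replicate 1 of each line as its reference. Its untreated differences for SC5D (-0.26) and FADS1 (0.33) therefore compare replicate 1 levels and are no test of these 2 calls.

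Around the members, 46 measured genes of the same pathways, from a list of 57, were counted as well. In SKMEL28 at 48 h, 17 of the 46 were higher and 12 lower (37% and 26.1%, against 25.7% and 23.4% of all genes). In SW1736 at 48 h 10 were higher and 5 lower (21.7% and 10.9%, against 14% and 12.6% of all genes), so the shares of lower genes lay near those of all genes in both lines. LRP8, a lipoprotein receptor, fell in both lines, with a log2 change of -2.42 ± 0.09 in SKMEL28 (adjusted p = 1.7e-15) and of -1.48 ± 0.15 in SW1736 (adjusted p = 7.42e-08). In SKMEL28 APOE, the apolipoprotein that LXR also drives, rose by 2.07 ± 0.11 (adjusted p = 7.29e-13), GPAM, the first enzyme of glycerolipid synthesis, by 1.45 ± 0.12 and PLTP, the phospholipid transfer protein, by 1.43 ± 0.14. APOE was undetected in SW1736 at 0 and 48 h. In SW1736 APOC1, a neighbouring apolipoprotein gene, rose by 2.58 ± 0.34 (adjusted p = 5.31e-06) and ACSL5, an acyl-CoA synthetase, by 1.42 ± 0.19, while TMEM97, a sterol-binding membrane protein, fell by 1.36 ± 0.16 (adjusted p = 9.07e-07).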

How the data were processed

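Total RNA of SKMEL28 and SW1736 cells was measured on 24 bead arrays. Per the file headers, the deposited raw table holds intensity values by probe and array, each with a detection p-value beside it, and its background treatment is not given in the sources used here. The authors also deposited a value table that, from its distribution, is on the log2 scale and quantile normalised, with a median of 6.90 per column, and it served as an alternative. The submitters' processing notes name Partek, with no version.

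Raw signals were background corrected (normexp with the detection p-values, offset 16), quantile normalised and put on the log2 scale with limma 3.58.1 in R 4.3.3. Of 47231 probes, 30113 carried 1 gene symbol, 30074 of which matched a current gene, 8 carried several and 17110 carried none. Probes detected at p under 0.05 on 3 or more arrays were kept (26673), and the brightest stood for each of 13699 genes. A model of group means with a variance weight for each line (1.55 for SKMEL28 and 0.643 for SW1736) and empirical Bayes moderation gave 12 comparisons, adjusted by Benjamini-Hochberg within each over all genes. Differences between lines are SW1736 minus SKMEL28. A fold against a group with no detected array is a lower bound, set against the lowest signal of a detected probe. The number of arrays limits the precision, and array signals carry no counts. The fit was run on simulated data with noise drawn independently for each array. That simulation cannot show how the fit behaves where same-numbered replicates deviate together. Same-numbered replicates did not deviate together in SKMEL28 (0 of 18 pairs of arrays with a correlation over 0.1). In SW1736 4 of 18 pairs did, all of them pairs of replicate 3 (0.104 to 0.182). Replicate numbers were not used as pairs in the main model. The replicate number as a block and SW1736 without its replicate 3 were run as alternatives. The block took replicate 1 of each line as its reference. It therefore adjusts comparisons over time and differences of responses, but not the comparison of the untreated lines.

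All members past the filter are described, and of the other pathway genes the 4 with the largest called changes at 48 h in each line are named. The members, lists and comparisons were chosen with earlier results of these data known. The alternatives comprised median scaling, the authors' table, no background correction, no or a stricter detection filter (p under 0.01), the mean of a gene's probes, one variance for both lines, each line fitted alone, SW1736 without its replicate 3, the replicate number as a block, each array left out, and, added after seeing the data, each other probe. Figures were drawn with matplotlib 3.10.9 in Python 3.11.15.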

Additional observations from a re-analysis of the deposited data

Results flagged for a closer look

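The responses of the 33 genes to vemurafenib were compared between the lines by a test of the difference itself. This was a limma interaction contrast at an adjusted p under 0.05, with 3 arrays per group. Its value is the log2 change in SW1736 minus that in SKMEL28. Of all genes, 4.23% passed this test at 6 h, 21.1% at 48 h and 18% from 6 to 48 h, and of the members 12.1%, 24.2% and 21.2%. At 48 h and from 6 to 48 h the members' share thus lay near that of all genes. The members' shares count ABCA1 at 6 and 48 h and ABCG1 in each comparison. No SKMEL28 change was measured for these genes on the probes used, so their values are given without a p-value. At 6 h the differences were 1.31 for HMGCS1 (adjusted p = 0.0254), -0.88 for ELOVL6 (adjusted p = 0.00785), 1.33 for ABCA1 and 1.40 for ABCG1. At 48 h they were -1.46 for IDI1 (adjusted p = 0.00626), -1.06 for LSS (adjusted p = 0.00263), 2.21 for ELOVL6 (adjusted p = 2.16e-08) and -1.26 for SCD (adjusted p = 1.08e-05). In the same comparison they were -0.73 for SREBF1 (adjusted p = 0.0175), 0.92 for INSIG2 (adjusted p = 0.0277), 0.83 for ABCA1 and 2.10 for ABCG1.

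From 6 to 48 h the differences were -1.65 for HMGCS1 (adjusted p = 0.00128), -1.34 for IDI1 (adjusted p = 0.0139), -0.71 for LSS (adjusted p = 0.0445) and 3.09 for ELOVL6 (adjusted p = 3.22e-10). They were -0.74 for SCD (adjusted p = 0.00432), -0.77 for SREBF1 (adjusted p = 0.0138) and 0.69 for ABCG1. In the values of ABCA1 and of the ABCG1 probe used, both SKMEL28 groups were undetected, so these values restate the SW1736 change. An ABCG1 probe detected on 11 SKMEL28 arrays gave differences of 0.23 at 6 h (adjusted p = 0.893) and 0.31 at 48 h (adjusted p = 0.693). The ABCG1 call from 6 to 48 h was lost without any 1 of 6 arrays (0.63 to 0.67). On the dimmer ELOVL6 probe the difference was -0.05 at 6 h (adjusted p = 0.981), 1.02 at 48 h (adjusted p = 0.0765) and 1.07 from 6 to 48 h (adjusted p = 0.068). Of the alternatives, 5 ended the HMGCS1 call at 6 h and 7 the INSIG2 call at 48 h. For LSS, 2 ended the call at 48 h and 15 that from 6 to 48 h. For SREBF1 these were 3 and 2, and 1 ended the IDI1 call from 6 to 48 h.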

How the results depend on the processing

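Of 107 calls of members, 106 were kept without background correction, 106 with the authors' table, 101 without the filter, 107 with the stricter filter, 97 with the mean of the probes, 96 with one variance for both lines, 96 without SW1736 replicate 3 and 83 under median scaling, and 0 were reversed by these. Fitting each line alone kept 65 of 68. The replicate number as a block kept 104. Over time it ended the call of INSIG2 in SKMEL28 from 6 to 48 h (0.42, adjusted p = 0.0578), with 10 members called in SW1736 at 48 h and 5 at 6 h. Between the untreated lines it called 18, without SC5D and FADS1. That comparison sets replicate 1 levels of the lines against each other, so it is no test of those calls. Counts of members called moved as follows. In SKMEL28 at 1 h the count of 1 became 0 under median scaling, no filter and one variance, and 0 to 0 with each array left out. In SKMEL28 at 6 h it was 4 under median scaling against 7. In SW1736 at 6 h it was 7 without background correction, 7 with the authors' table and 9 with one variance, against 4. For the difference between lines at 6 h it was 2 with the mean of the probes against 4, and at 48 h it was 5 under median scaling against 8. With 1 array left out the counts ranged from 5 to 9 in SW1736 at 48 h (5 without 0 h replicate 3), from 4 to 8 from 6 to 48 h in SW1736 (4 without 48 h replicate 2), and from 4 to 7 for the difference from 6 to 48 h (4 without SW1736 48 h replicate 1). Dimmer probes turned some directions. These were ACSS2 in SKMEL28 (-0.81 at 48 h and -0.80 from 6 to 48 h), INSIG1 on a probe detected on 6 arrays (-0.36, -0.20 from 6 to 48 h, -0.056 in SW1736 from 6 to 48 h, -0.38 between untreated lines) and ABCG1 (-0.031 in SW1736 at 6 h, -0.32 for the difference at 6 h, -0.17 between untreated lines). Over all genes, one variance called 24 against 57 in SKMEL28 at 1 h, 938 against 1969 at 6 h, and 29 against 7 and 1194 against 603 in SW1736 at 1 and 6 h. SKMEL28 at 1 h gave 34 fitted alone and 32 under median scaling. SW1736 at 1 h gave 12 without background correction, 2 without replicate 3 and 4 fitted alone, and at 6 h 374 without replicate 3. Median scaling gave 387 against 580 for the difference at 6 h. It also changed the split of higher and lower calls, to 280 and 1309 from 867 and 1102 in SKMEL28 at 6 h, to 2355 and 3255 from 3524 and 3206 at 48 h, to 124 and 392 from 249 and 354 in SW1736 at 6 h, and to 1244 and 1891 from 1918 and 1720 at 48 h. The cause was not tested. Signals near background limit FADS2, SREBF2 and TM7SF2 in SKMEL28, and the small number of arrays limits each value.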
